A study of Homo sapiens with 30 samples.

Results

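The 10 genes described here encode the writers and erasers of DNA methylation and the core of Polycomb repressive complex 2 (PRC2). They were chosen by symbol as DNMT1, UHRF1, DNMT3A, DNMT3B, TET1, TET2, TET3, EZH2, EED and SUZ12, and all 10 were found once in each of the 4 count tables, among 57773 genes. RNA-seq libraries came from 3 human prostate cancer cell lines, as 30 columns of counts from 22 libraries in 14 groups. VCaP cells were transfected for 2 days with 20 nM of an siRNA against RB1 or of a non-targeting siRNA (3 libraries each), in medium labelled with 10% FBS, although the VCaP library names carry CSS, the abbreviation used elsewhere in the labels for charcoal-stripped serum. Their androgen state is therefore uncertain. C4-2-tet-shRB cells are C4-2 cells, a castration-resistant derivative of LNCaP, that carry a doxycycline-inducible hairpin against RB1. In 1 experiment they had 0.05 µg/ml doxycycline for 3 days and then 10 µM of the LSD1 inhibitor GSK2879552 for 24 hours, doxycycline with DMSO, the inhibitor alone, or DMSO alone (2 libraries each), in 5% charcoal-stripped serum. In the other they had 0, 3 or 30 days of 0.05 µg/ml doxycycline, each with 10 nM of the androgen dihydrotestosterone (DHT) for 24 hours or vehicle, in 8% charcoal-stripped and 2% regular serum. LNCaP cells, an androgen-sensitive line, had 1 µM GSK2879552 for 2 days or vehicle, in 5% charcoal-stripped serum.

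All C4-2 groups carried the hairpin and no group had doxycycline with a control hairpin, so loss of RB1 and an effect of doxycycline itself cannot be told apart. The DHT and LNCaP experiments had 1 library per group, read in 2 lanes that were summed. Libraries held 4311455 to 7107036 counts in VCaP cells, 14515932 to 22326960 in C4-2 cells with the inhibitor, 14898454 to 16856486 in C4-2 cells with DHT, and 13085157 to 14036346 in LNCaP cells. No label states that replicates were separate cultures, so a p-value in VCaP or the inhibitor experiment reflects the spread between sequenced samples, which may be technical. Between VCaP libraries of a group, the chi-square per degree of freedom of the counts was 1.13 to 1.39. It was 1.61 to 7.88 in the inhibitor experiment, and 0.983 to 1.01 between lanes of 1 library, which differ by about sampling noise. The VCaP p-values thus rest on a spread not far above sampling noise. The DHT experiment had no replicates. A p-value there rests on departures from doxycycline and DHT effects that simply add, and measures no spread between replicates. The luminal prostate marker HOXB13 was present in every library (273 to 823 CPM), and ERG, which VCaP cells overexpress from a known gene fusion, reached 273 CPM or more in VCaP libraries alone. Immune markers summed to at most 1.62 CPM in any library, while the neuroendocrine markers CHGA, CHGB, SYP and INSM1 summed to 307 to 336 CPM in VCaP libraries and to at most 4.01 CPM in the other tables. RB1, the hairpin and siRNA target, stood at 5.32, 6.71 and 7.38 CPM with the RB1 siRNA and at 56.2, 59.7 and 63.6 CPM with the control siRNA in VCaP cells. In C4-2 cells RB1 was at 4.64 to 10.0 CPM in the 8 libraries with doxycycline and at 22.1 to 51.1 CPM in the 6 without.

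DNA methylation at CpG sites is copied to the new strand during DNA replication by DNMT1, which UHRF1 brings to hemimethylated DNA, while DNMT3A and DNMT3B can methylate DNA that carried no mark. TET enzymes oxidise 5-methylcytosine, a step towards its removal. PRC2 methylates lysine 27 of histone H3 through its catalytic subunit EZH2, which is active only in complex with EED and SUZ12, and EZH2 is known for its high level in advanced prostate cancer. RB1 restrains E2F transcription factors, which drive genes of DNA replication.

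Promoter sequences are shown for 4 of the genes because these genes moved with RB1 depletion in at least 1 experiment and their windows hold letters of the E2F motif. They are from RefSeq on GRCh38.p14, from 250 bases before to 50 bases after an annotated start, and capitals mark each match to the E2F motif on either strand, spelled as TTCCCGC (found in UHRF1 and TET3), with TTCGCGC found in DNMT1 and TTGGCGC found in EZH2, while TTGCCGC was also searched. A match describes letters and is no evidence of binding. UHRF1 is at chr19:4909251-4909550 on the plus strand, DNMT1 at chr19:10194904-10195203 on the minus strand, EZH2 at chr7:148884242-148884541 on the minus strand and TET3 at chr2:73984660-73984959 on the plus strand.
UHRF1: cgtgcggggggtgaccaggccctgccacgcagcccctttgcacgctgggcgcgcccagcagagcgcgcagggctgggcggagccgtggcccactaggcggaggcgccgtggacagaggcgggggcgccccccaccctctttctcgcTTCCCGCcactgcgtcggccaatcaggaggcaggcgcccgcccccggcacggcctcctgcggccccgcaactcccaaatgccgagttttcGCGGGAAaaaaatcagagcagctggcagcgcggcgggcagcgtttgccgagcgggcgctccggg
DNMT1: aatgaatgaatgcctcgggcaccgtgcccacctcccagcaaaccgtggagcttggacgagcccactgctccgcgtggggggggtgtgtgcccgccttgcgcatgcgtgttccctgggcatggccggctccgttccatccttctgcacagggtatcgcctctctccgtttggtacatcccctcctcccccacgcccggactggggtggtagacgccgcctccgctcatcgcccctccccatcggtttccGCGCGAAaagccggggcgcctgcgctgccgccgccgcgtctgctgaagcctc
EZH2: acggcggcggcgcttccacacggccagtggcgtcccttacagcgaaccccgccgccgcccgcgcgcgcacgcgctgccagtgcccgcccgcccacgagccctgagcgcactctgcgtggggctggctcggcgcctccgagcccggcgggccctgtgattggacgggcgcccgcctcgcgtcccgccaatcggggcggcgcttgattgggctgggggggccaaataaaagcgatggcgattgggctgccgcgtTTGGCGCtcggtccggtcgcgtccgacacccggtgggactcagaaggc
TET3: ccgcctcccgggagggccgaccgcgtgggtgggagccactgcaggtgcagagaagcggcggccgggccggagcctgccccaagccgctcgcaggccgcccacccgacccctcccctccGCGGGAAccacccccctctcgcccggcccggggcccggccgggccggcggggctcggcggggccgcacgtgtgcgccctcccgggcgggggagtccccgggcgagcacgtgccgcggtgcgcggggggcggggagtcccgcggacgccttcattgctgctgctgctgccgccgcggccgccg
Counting the start base as position 1, the matches begin at positions -104 and -14 in UHRF1, -2 in DNMT1, 3 in EZH2 and -132 in TET3. A second UHRF1 window and the SUZ12 window held 1 match each, which makes 5 of the 10 genes with a match, against 15.3% of 27305 RefSeq genes, and 6 of the 22 windows of these genes, against 13.0% of 35116 windows. The third UHRF1 window and the other windows of EZH2 and TET3 held 0 matches. The windows of DNMT3A, DNMT3B, TET1, TET2 and EED held none of these letters. The only DNMT3B window, at chr20:32779602-32779901, lies inside the gene, whose GENCODE start is at 32762385 on the plus strand. The sequence at that start was not searched, so DNMT3B cannot be said to lack a match there. The printed UHRF1 and DNMT1 windows also lie inside their GENCODE genes, which start at 4903080 on the plus strand and 10231286 on the minus strand. Sequence at those starts was not searched either. CCAAT, on either strand, was in 34.6% of all windows and in the printed windows of UHRF1 (1 match) and EZH2 (4 matches), none of which overlaps a capital run. The letters TTTGAA were in 15.2% of all windows and in none of the 4 printed ones.

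Levels between genes were compared as CPM per kilobase of exon in the control libraries. In C4-2 cells DNMT1 was the highest of the 10, at 19.7 and 20.2 CPM per kb with DMSO and 20.4 CPM per kb with vehicle in the DHT experiment. LNCaP cells with vehicle also had DNMT1 first, at 12.3 CPM per kb. In VCaP cells SUZ12 came first, at 24.3 to 24.6 CPM per kb, ahead of DNMT1 at 10.6 to 11.5 CPM per kb.

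TET1 was the lowest of the 10 in all 4 control groups, at 1.01 to 1.30 CPM per kb in VCaP, 0.653 and 0.67 CPM per kb in C4-2 with DMSO, 1.35 CPM per kb in C4-2 with vehicle and 0.557 CPM per kb in LNCaP. Between these ends the order in VCaP cells ran TET3, EZH2, UHRF1, EED, DNMT3A, DNMT3B and TET2. There UHRF1 (4.12 to 5.47 CPM per kb), EED (4.09 to 4.52) and DNMT3A (3.99 to 4.36) overlapped over the 3 libraries and the other neighbours did not. In C4-2 cells with DMSO the order was EZH2, SUZ12, TET3, DNMT3A, UHRF1, DNMT3B, EED and TET2, and only EZH2 (7.69 and 8.95 CPM per kb) and SUZ12 (7.02 and 8.09) overlapped. DNMT3A stood at 4.79 and 5.23 CPM per kb in the C4-2 libraries with DMSO, made with an mRNA kit, and at 1.48 CPM per kb in the C4-2 library with vehicle, made with a total RNA kit. Kit, serum and experiment cannot be told apart in that difference. SUZ12, EZH2 and UHRF1 have pseudogene copies of close sequence, and how the authors' counting treated reads that match several places is not given in the sources used here, so the levels of these 3 are uncertain.

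**Figure D1:**
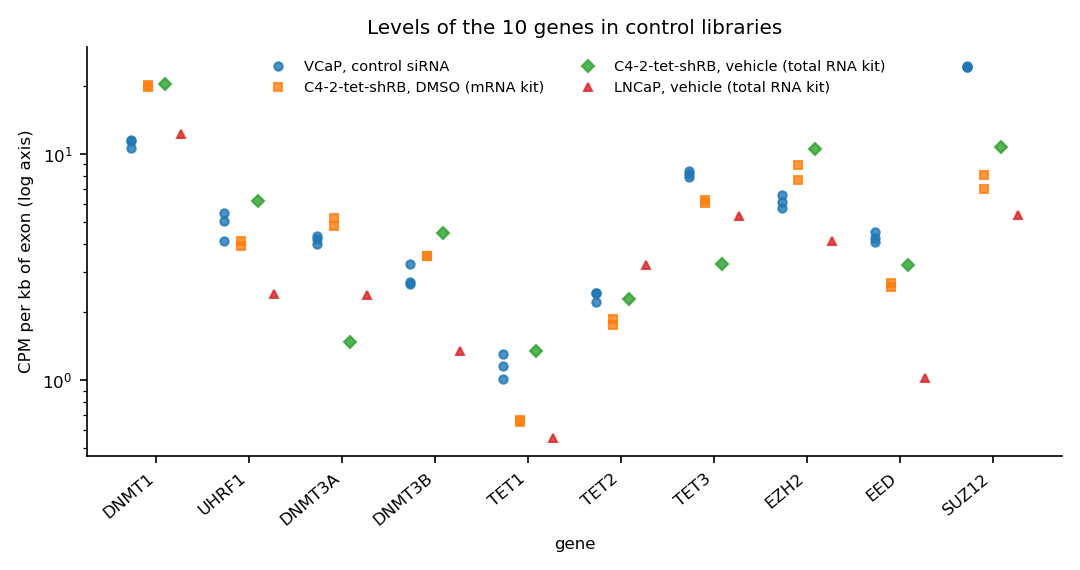
CPM per kilobase of exon (log axis) of the 10 genes in the control libraries of the 4 tables, with 1 point per library. DNMT1 is highest in the C4-2 and LNCaP libraries and SUZ12 in the VCaP libraries, and TET1 is lowest in all 4 groups.

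Which of these genes respond to loss of RB1 was asked first in VCaP cells. DNMT1, the maintenance methyltransferase, stood at 125, 130 and 135 CPM with the RB1 siRNA and at 104, 112 and 112 CPM with the control siRNA. All 3 depleted libraries lay above all 3 controls. It rose by 0.25 ± 0.05 on the log2 scale (SE, edgeR quasi-likelihood test with Benjamini-Hochberg adjustment, adjusted p = 0.00046, n = 3 per group), and it was the 1 of 10 members called, against 2.96% of 14066 genes called higher and 5.62% called in either direction. UHRF1, its partner at the replication fork, had 26.3, 26.8 and 29.8 CPM with the RB1 siRNA and 21.2, 26.1 and 28.2 CPM with the control siRNA, so the groups overlapped (log2 0.14 ± 0.10, adjusted p = 0.538).

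The de novo enzymes had no call in VCaP cells (DNMT3A log2 -0.06 ± 0.08, DNMT3B log2 0.23 ± 0.14). TET2, a 5-methylcytosine dioxygenase, had 31.4, 31.4 and 33.7 CPM with the RB1 siRNA and 36.4, 39.8 and 39.8 CPM with the control siRNA. The 2 groups did not overlap, but the difference missed the threshold (log2 -0.27 ± 0.09, adjusted p = 0.0578). TET1 was low (up to 10.6 CPM with the RB1 siRNA and up to 12.0 CPM with the control siRNA) and TET3 overlapped (93.9 to 99.0 CPM with the RB1 siRNA and 97.2 to 103 CPM with the control siRNA). EZH2, EED and SUZ12 had log2 changes of 0.05 ± 0.10, -0.04 ± 0.10 and -0.06 ± 0.05 and no call.

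In C4-2 cells with DMSO, 3 days of doxycycline moved 4 of the 10 genes, DNMT1, DNMT3B and EZH2 upward and TET3 downward, against 4.25% of 18423 genes called higher, 3.59% called lower and 7.84% in either direction. DNMT1 had 250 and 241 CPM with doxycycline and 198 and 193 CPM with DMSO alone (log2 0.33 ± 0.07, adjusted p = 0.00546, edgeR, n = 2 per group). DNMT3B, a de novo methyltransferase, had 23.7 and 22.3 CPM with doxycycline and 16.3 and 16.4 CPM with DMSO alone (log2 0.49 ± 0.10, adjusted p = 0.00687, edgeR, n = 2 per group). Neither gene's groups overlapped.

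EZH2 had 46.2 and 49.8 CPM with doxycycline and 34.8 and 40.5 CPM with DMSO alone, with no overlap (log2 0.35 ± 0.10, adjusted p = 0.0339 in edgeR). TET3, a 5-methylcytosine dioxygenase, had 59.3 and 57.6 CPM with doxycycline and 76.7 and 74.4 CPM with DMSO alone (log2 -0.37 ± 0.07, adjusted p = 0.00512 in edgeR). It was the 1 member that fell, and its groups did not overlap. UHRF1 had 24.5 and 26.4 CPM with doxycycline and 20.1 and 21.2 CPM with DMSO alone, which missed the threshold (log2 0.30 ± 0.10, adjusted p = 0.0686). DNMT3A, TET1, TET2, EED and SUZ12 had log2 changes of -0.13 to 0.18 and no call.

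These calls rest on 2 libraries per group. Without DMSO replicate 1 or doxycycline replicate 1, 0 of the 4 calls remained past the threshold, and without DMSO replicate 2 or doxycycline replicate 2, 1 gene was called (TET3 at log2 -0.40 in the first case, DNMT3B at log2 0.54 in the second), with the lone sample taken to vary like the other groups. Without inhibitor replicate 1 or 2 the 4 calls stood and UHRF1 was called too (adjusted p = 0.0132 and 0.0148 in edgeR). Over all 8 such fits DNMT1 ranged over log2 0.30 to 0.35, DNMT3B over 0.44 to 0.54, EZH2 over 0.24 to 0.46 and TET3 over -0.40 to -0.35.

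The same contrast in cells given GSK2879552 compared doxycycline with the inhibitor against the inhibitor alone. DNMT1 had 229 and 227 CPM with doxycycline and the inhibitor and 164 and 182 CPM with the inhibitor alone (log2 0.40 ± 0.07, adjusted p = 0.00143 in edgeR). EZH2 had 47.0 and 51.4 CPM with doxycycline and the inhibitor and 36.7 and 32.5 CPM with the inhibitor alone (log2 0.50 ± 0.10, adjusted p = 0.00434 in edgeR). TET3 had 54.7 and 53.9 CPM with doxycycline and the inhibitor and 63.8 and 67.2 CPM with the inhibitor alone (log2 -0.27 ± 0.07, adjusted p = 0.0344 in edgeR). In none of the 3 did the groups overlap, and these 3 were the members called, against 4.52% of genes called higher, 3.2% called lower and 7.72% in either direction.

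DNMT3B had 20.9 and 21.0 CPM with doxycycline and the inhibitor and 18.6 and 17.1 CPM with the inhibitor alone, without a call (log2 0.22 ± 0.10, adjusted p = 0.201), and UHRF1 had 21.3 and 21.2 CPM with both agents and 16.5 and 17.3 CPM with the inhibitor alone (log2 0.33 ± 0.10, adjusted p = 0.0536). DNMT3A, TET1, TET2, EED and SUZ12 had log2 changes of 0.02 to 0.37 and no call. Without doxycycline-and-inhibitor replicate 2, EZH2 was no longer called (log2 0.42, adjusted p = 0.0858), and TET3 lost its call without any 1 of 6 libraries, both DMSO, both doxycycline and both doxycycline-and-inhibitor ones (log2 -0.32 to -0.23 over the 8 fits). UHRF1 gained a call without inhibitor replicate 2 (adjusted p = 0.0268) and SUZ12 without inhibitor replicate 1 (log2 0.26, adjusted p = 0.0466). The difference between the doxycycline responses with and without the inhibitor was called for 0 of 10 members, against 0.0163% of genes called (3 genes). At an unadjusted p under 0.05 it was 0 of 10, and DESeq2 also called 0. That difference ran over the 10 from log2 -0.27 ± 0.14 for DNMT3B to 0.32 ± 0.15 for EED (unadjusted p = 0.0503), and was 0.07 ± 0.09 for DNMT1.

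**Figure D2:**
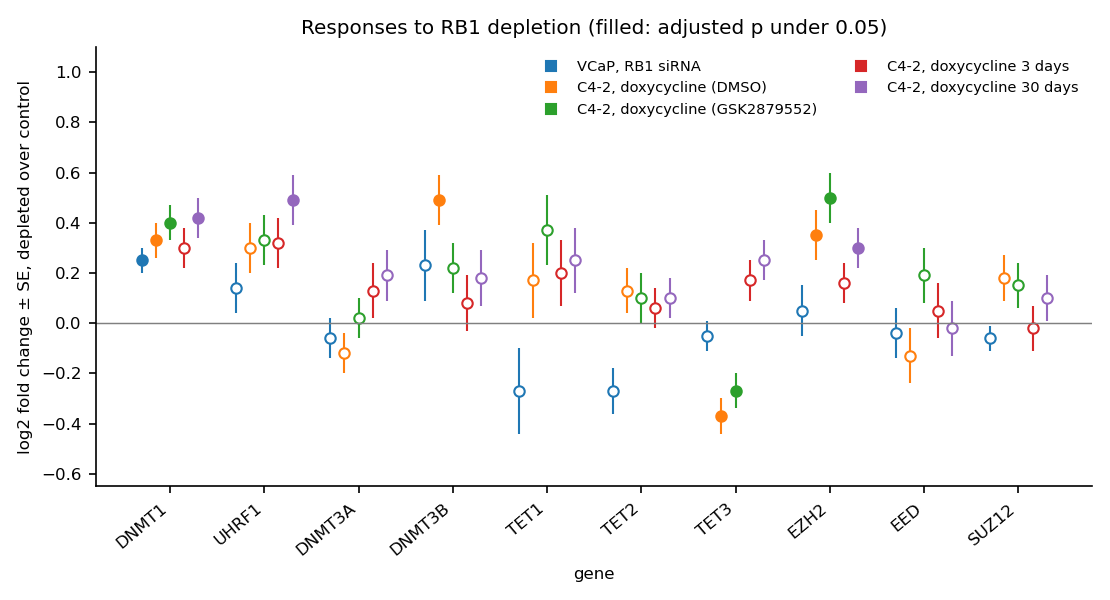
Log2 fold change ± SE of each of the 10 genes in 5 comparisons of RB1-depleted with control cells, where filled points have an adjusted p under 0.05. DNMT1 is above 0 in all 5 and called in 4, and TET3 is below 0 in both C4-2 comparisons of the inhibitor experiment and above 0 in both of the DHT experiment.

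In the DHT experiment the effect of doxycycline was fitted over vehicle and DHT together, with 1 library per group. After 3 days 0 of 10 members were called by edgeR, against 0.468% of 17300 genes. DESeq2 also called 0, and 2 members had an unadjusted p under 0.05, DNMT1 (log2 0.30 ± 0.08, adjusted p = 0.101) and UHRF1 (log2 0.32 ± 0.10, adjusted p = 0.204), while the other 8 lay at log2 -0.02 to 0.20. Leaving out 1 library moved DNMT1 over log2 0.10 (without DHT at 0 days) to 0.52 (without vehicle at 0 days, adjusted p = 1.29e-10). It was called without that library, without 3 days with vehicle (log2 0.42), or without either library of 30 days. UHRF1 moved over log2 0.16 to 0.55 and was called without vehicle at 0 days (log2 0.43) or at 3 days (log2 0.55). After 30 days 3 of 10 rose, against 2.51% of genes called higher and 4.03% in either direction. They were DNMT1 (log2 0.42 ± 0.08, adjusted p = 0.00187), UHRF1 (log2 0.49 ± 0.10, adjusted p = 0.00402) and EZH2 (log2 0.30 ± 0.08, adjusted p = 0.034), while the other 7 lay at log2 -0.02 to 0.25.

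The libraries behind these values differed between vehicle and DHT. UHRF1 stood at 31.8, 35.5 and 44.6 CPM after 0, 3 and 30 days of doxycycline with vehicle and at 15.1, 22.1 and 21.4 CPM with DHT. DNMT1 stood at 200, 213 and 235 CPM over the same days with vehicle and at 107, 155 and 167 CPM with DHT. The ratio of 3 days to 0 days was 1.45 for DNMT1 with DHT (95% counting interval 1.35 to 1.55) and 1.07 with vehicle (1.02 to 1.12), and at 30 days it was 1.56 (1.46 to 1.67) with DHT and 1.18 (1.12 to 1.23) with vehicle.

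For both genes the lowest library was the one with DHT and no doxycycline, which is the common denominator of the ratios with DHT. The intervals cover counting error only, and with 1 library per group the difference between hormone conditions was not tested. EZH2 stood at 47.6, 49.7 and 54.8 CPM after 0, 3 and 30 days with vehicle and at 30.0, 36.6 and 40.5 CPM with DHT. DNMT3B stood at 20.7, 21.8 and 23.1 CPM with vehicle and 10.9, 11.7 and 12.7 CPM with DHT, without a call at 3 days (log2 0.08 ± 0.11) or 30 days (log2 0.18 ± 0.11). The step from 3 to 30 days was called for 0 of 10 members, against 0.324% of genes, with 0 at an unadjusted p under 0.05 and 0 by DESeq2, and ran from log2 -0.07 for EED to 0.18 for UHRF1.

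By DESeq2, 1 of the 3 calls at 30 days remained, DNMT1 (adjusted p = 0.0107), while UHRF1 (adjusted p = 0.105) and EZH2 (adjusted p = 0.348) did not. DNMT1 lost its edgeR call without the library of 30 days with DHT (log2 0.34, adjusted p = 0.0536) and moved over log2 0.22 (without DHT at 0 days) to 0.65 (without vehicle at 0 days), UHRF1 lost it without that of 30 days with vehicle (log2 0.38, adjusted p = 0.171), and EZH2 lost it without either of these or that of DHT alone (log2 0.20 to 0.43 over the 6 fits). Without the vehicle library at 0 days, 5 members were called at 30 days, the added ones being TET3 (log2 0.36, adjusted p = 0.00708) and SUZ12 (log2 0.31, adjusted p = 0.0116).

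The 5 comparisons of RB1 depletion share libraries in part, since the 2 times of the DHT experiment use the same untreated libraries. DNMT1 had a positive value in each, log2 0.25 in VCaP, 0.33 and 0.40 in C4-2 without and with the inhibitor, and 0.30 and 0.42 after 3 and 30 days in the DHT experiment. TET3 had no common sign. It was lower with doxycycline in both contrasts of the inhibitor experiment, but in the DHT experiment it stood at 42.7 and 43.5 CPM after 3 and 30 days with vehicle, against 40.1 CPM at 0 days, and at 41.0 and 45.1 CPM with DHT, against 34.4 CPM at 0 days. In a fit of VCaP and inhibitor-experiment libraries together, the RB1 siRNA response minus the doxycycline response with DMSO was called for 1 of 10 members, TET3 (log2 0.35 ± 0.09, adjusted p = 0.0192 in edgeR), against 4.63% of 19976 genes. In a fit of both C4-2 experiments, added after the values were seen, the 3-day doxycycline response with DMSO minus that in the DHT experiment was again called for 1 of 10, TET3 (log2 -0.53 ± 0.12, adjusted p = 0.0179 in edgeR), against 1.04% of 19898 genes. Cell line, kit and serum differ between the experiments in part and cannot be told apart.

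**Figure D3:**
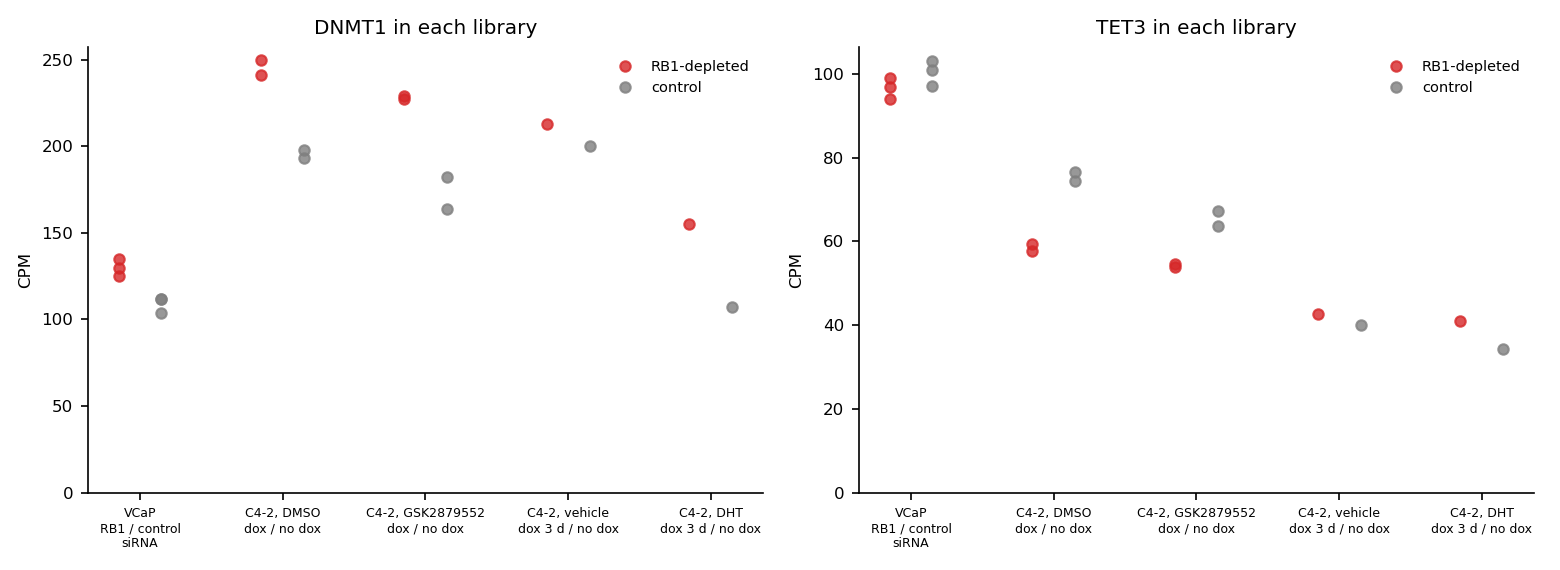
CPM of DNMT1 (left) and TET3 (right) in each library of the RB1-depleted and control groups, from a baseline of 0, with 1 point per library. DNMT1 is higher in the depleted libraries of all 5 pairs of groups, and TET3 is lower in the C4-2 pairs with DMSO (57.6 and 59.3 against 74.4 and 76.7 CPM) and with GSK2879552 but not in those with vehicle or DHT.

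Genes that work with the 10 were counted beside them. Of 10 S-phase genes 9 rose in VCaP cells with the RB1 siRNA (MCM2 log2 0.34 ± 0.04, list median 0.28 against 0 for all genes), 8 with doxycycline in C4-2 cells with DMSO (MCM4 log2 0.50 ± 0.06, median 0.42), 7 with doxycycline in the presence of the inhibitor (median 0.44) and 6 after either time of doxycycline in the DHT experiment (MCM3 log2 0.43 ± 0.07 at 3 days and 0.48 ± 0.07 at 30 days, median 0.38 at both). These genes of DNA replication moved beside DNMT1, and their part in its change was not tested. Of 10 G2/M genes 6 fell in VCaP cells (median log2 -0.24) while 2 rose with doxycycline in C4-2 cells with DMSO (median 0.13) and 3 beside the inhibitor (median 0.12). At 3 and 30 days in the DHT experiment 0 G2/M genes were called by edgeR, with 9 and 3 higher at an unadjusted p under 0.05 (medians 0.26 and 0.08). In bulk RNA a different number of cells in a state and a different RNA level per cell cannot be told apart.

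Among 7 measured partners of the DNA methyltransferases, PCNA, the replication clamp, rose in VCaP (log2 0.22 ± 0.04), in C4-2 with DMSO (log2 0.39 ± 0.08), in C4-2 with the inhibitor (log2 0.30 ± 0.08) and after 3 and 30 days of doxycycline in the DHT experiment (log2 0.33 ± 0.07 and 0.38 ± 0.07). In VCaP cells 1 partner fell, USP7, a deubiquitinase (log2 -0.15 ± 0.05), and in each of the other 4 comparisons 2 partners rose and 0 fell. HELLS, a chromatin remodeler needed for DNA methylation at repeats, rose at 3 and 30 days in the DHT experiment (log2 0.47 ± 0.09 and 0.59 ± 0.09), and CDCA7, which activates HELLS, rose with doxycycline in the inhibitor experiment (log2 0.65 ± 0.13 with DMSO and 0.57 ± 0.12 with GSK2879552). Of 10 further PRC2 genes, 2 rose in VCaP, 2 rose and 2 fell in C4-2 with DMSO, 0 were called with the inhibitor (5 at an unadjusted p under 0.05) or at 3 days (3 at an unadjusted p under 0.05), and 3 rose at 30 days. With DMSO the accessory subunit PHF19 (log2 0.52 ± 0.12) and the histone chaperone RBBP4 (log2 0.33 ± 0.08) rose, while EZH1, the EZH2 paralogue (log2 -0.35 ± 0.09), and the accessory subunit PHF1 (log2 -0.34 ± 0.09) fell. In VCaP cells PHF1 rose (log2 0.28 ± 0.08). Of 12 demethylation genes 1 rose (IDH2, log2 0.16 ± 0.04) and 3 fell in VCaP cells, among them TDG, the glycosylase that excises oxidised methylcytosine (log2 -0.68 ± 0.10). With doxycycline 2 rose beside DMSO (IDH2 log2 0.31 ± 0.06, GADD45A log2 0.66 ± 0.14) and 3 beside the inhibitor, while at 3 days 0 were called (2 at an unadjusted p under 0.05) and at 30 days IDH1 fell. Among 16 PRC1 genes 3 rose in VCaP, 0 were called in C4-2 with DMSO and 0 at 3 days (2 each at an unadjusted p under 0.05), and 1 rose beside the inhibitor and at 30 days. All these list counts, and those of the S-phase and G2/M genes, stand beside the shares of all genes called in either direction. These were 5.62% in VCaP, 7.84% with DMSO, 7.72% beside the inhibitor, 0.468% at 3 days and 4.03% at 30 days.

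DHT lowered 5 of the 10 genes in C4-2 cells, over all doxycycline levels together, in a comparison where 24.3% of 17300 genes were called higher, 22.8% lower and 47.1% in either direction. UHRF1 had 15.1, 22.1 and 21.4 CPM with DHT after 0, 3 and 30 days of doxycycline and 31.8, 35.5 and 44.6 CPM with vehicle, and every DHT library lay below every vehicle library. Its log2 change was -0.94 ± 0.08 (adjusted p = 2.33e-10, edgeR additive model with 3 libraries per hormone condition). DNMT3B also had all 3 DHT libraries (10.9 to 12.7 CPM) below all 3 vehicle libraries (20.7 to 23.1 CPM) and fell by 0.90 ± 0.09 (adjusted p = 3.35e-09).

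DNMT1 fell by 0.61 ± 0.07 with DHT (adjusted p = 8.52e-09) and EZH2 fell by 0.51 ± 0.07 (adjusted p = 4.32e-07), again with no overlap between the hormone conditions. SUZ12, the PRC2 subunit that anchors the complex, had 49.5, 57.9 and 59.3 CPM with DHT and 70.0, 59.6 and 68.6 CPM with vehicle after 0, 3 and 30 days, so that all 3 DHT libraries were lower but the middle pair lay close. It fell by 0.25 ± 0.07 in log2 terms (adjusted p = 0.0046), but not without either library at 0 days (log2 -0.13 in both cases, adjusted p = 0.106 without DHT and 0.0945 without vehicle) nor by DESeq2 (adjusted p = 0.057). DNMT3A, TET1, TET2, TET3 and EED had log2 changes of -0.22 to -0.07 without a call, and TET1 was called without either library of 30 days of doxycycline.

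At each doxycycline level the ratio of DHT to vehicle rested on 1 library each. For UHRF1 it was 0.474 (95% counting interval 0.401 to 0.558) at 0 days, 0.621 (0.54 to 0.713) at 3 days and 0.48 (0.419 to 0.548) at 30 days. UHRF1 was the 1 member beyond 2-fold at 0 days, where 3.82% of genes were at least 2-fold lower, and at 30 days, where 1.83% were. At 3 days 0 members were beyond 2-fold, against 5.17% of genes in either direction.

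For DNMT3B the 3 ratios were close, at 0.527, 0.535 and 0.549. DNMT1 had 0.535 (0.503 to 0.57) at 0 days, 0.725 (0.688 to 0.765) at 3 days and 0.71 (0.675 to 0.747) at 30 days, and EZH2 had 0.63, 0.736 and 0.738, both lowest relative to vehicle without doxycycline. Scaling by total counts in place of TMM (trimmed mean of M values) moved every gene's DHT ratio by -0.21, -0.18 and -0.16 on the log2 scale at 0, 3 and 30 days. With it DNMT1 stood at 0.463, 0.639 and 0.634, and under both scalings the ratios of DNMT1, UHRF1, DNMT3B and EZH2 stayed below 1.

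**Figure D4:**
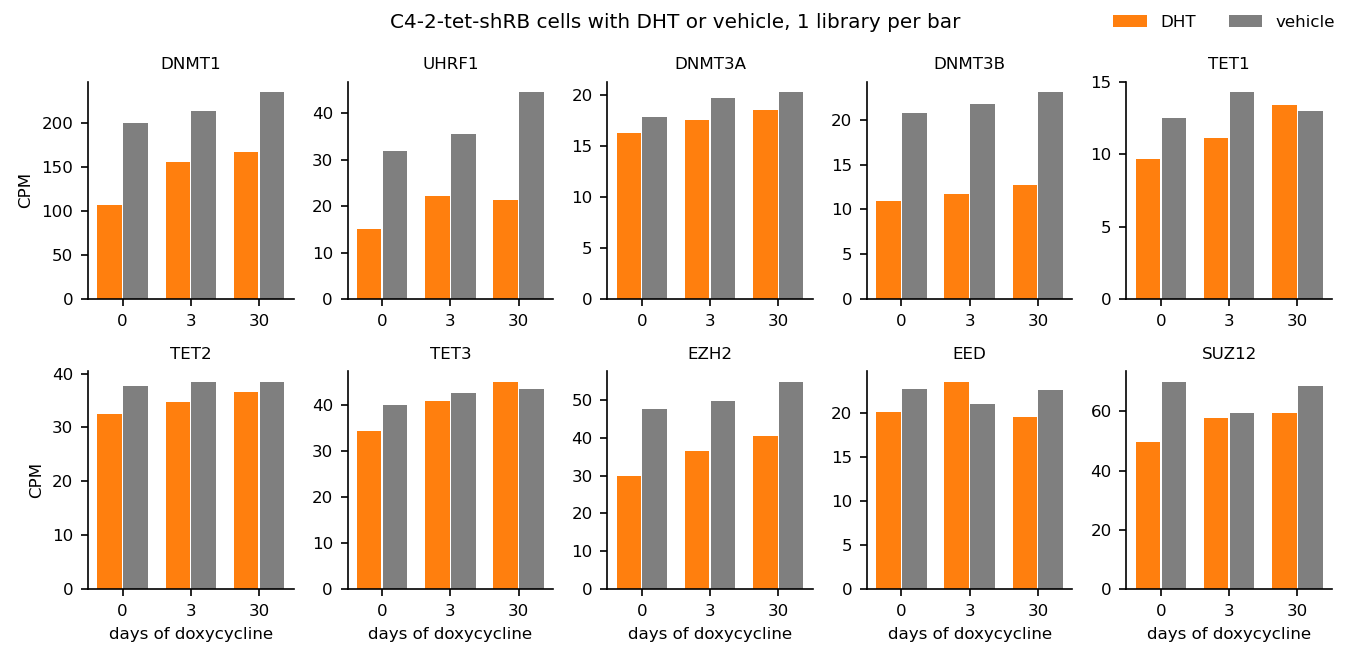
CPM of the 10 genes in C4-2-tet-shRB cells with DHT (orange) or vehicle (grey) after 0, 3 and 30 days of doxycycline, with 1 library per bar. UHRF1, DNMT1, DNMT3B and EZH2 are lower with DHT at all 3 times, while TET3 with DHT is at 34.4, 41.0 and 45.1 CPM against 40.1, 42.7 and 43.5 CPM with vehicle.

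All 10 S-phase genes (median log2 -0.68 against -0.02 for all genes) and all 10 G2/M genes (median -0.64) fell with DHT in the same fit. These lists moved with UHRF1, DNMT1, DNMT3B and EZH2, and their part in the fall was not tested. Of 7 partners of the methyltransferases 5 fell, with CDCA7 at log2 -1.20 ± 0.09 and PCNA at log2 -0.67 ± 0.06. Of 10 further PRC2 genes 2 fell and 2 rose, among them the ligand-dependent corepressor LCOR (log2 0.73 ± 0.07) and PHF1 (log2 0.51 ± 0.07). Among 12 demethylation genes GADD45G (log2 1.93 ± 0.07) and IDH1, which makes the 2-oxoglutarate that TET enzymes use (log2 0.71 ± 0.06), rose and 5 fell, including GADD45A (log2 -0.64 ± 0.16). KDM6A, an H3K27 demethylase, fell (log2 -0.24 ± 0.05) and was the 1 of 5 genes opposing H3K27 methylation that did. These counts stand in a comparison where 47.1% of all genes were called.

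GSK2879552 blocks LSD1, a histone demethylase of lysine 4 on histone H3. In C4-2 cells without doxycycline it left 0 of 10 members called, against 0.678% of 18423 genes. DESeq2 called 0 as well, and 4 had an unadjusted p under 0.05, all lower, namely UHRF1 (16.5 and 17.3 CPM with the inhibitor, 20.1 and 21.2 CPM with DMSO, log2 -0.29 ± 0.10, adjusted p = 0.253), DNMT3A (log2 -0.24 ± 0.08), TET3 (log2 -0.21 ± 0.07) and DNMT1 (log2 -0.18 ± 0.07). The other 6 lay at log2 -0.19 to 0.13. The 2 libraries with the inhibitor alone differed more from each other than those of the other groups (chi-square per degree of freedom 7.88 against 1.61 to 3.56). RB1 stood at 32.7 and 22.1 CPM in them. The spread was estimated over all groups of the experiment together, so a missing call does not show that the inhibitor had no effect. Without inhibitor replicate 2, DNMT1 (log2 -0.27) and TET3 (log2 -0.25) were called.

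With doxycycline the inhibitor again left 0 of 10 called, against 1.34% of genes, with 0 by DESeq2. UHRF1 alone had an unadjusted p under 0.05, at 21.3 and 21.2 CPM with doxycycline and the inhibitor and 24.5 and 26.4 CPM with doxycycline (log2 -0.26 ± 0.10, adjusted p = 0.285). The 95% interval of this change ran over log2 -0.45 to -0.07, and the other 9 lay at log2 -0.14 to 0.20. UHRF1 thus lay lower with the inhibitor in both settings without overlap, and neither difference passed the threshold. Of the 10 S-phase genes 0 were called with the inhibitor by edgeR, but 5 without doxycycline (median log2 -0.17) and 4 with it (median log2 -0.13) were lower at an unadjusted p under 0.05.

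LNCaP cells had another dose and time, 1 µM for 2 days, so their values are given beside those of C4-2 cells without a comparison. UHRF1 had 35 counts (2.65 CPM) with the inhibitor and 172 counts (12.4 CPM) with vehicle, a ratio of 0.214 with a 95% counting interval of 0.145 to 0.31. It was the 1 member beyond 2-fold, where 1.43% of 11955 genes that held 100 or more counts over both libraries were at least 2-fold lower and 2.97% were beyond 2-fold in either direction. Only 0.0753% of these genes had a ratio as low or lower.

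DNMT1 had 93.1 CPM with the inhibitor and 120 CPM with vehicle (ratio 0.774, interval 0.718 to 0.833) and SUZ12 had 28.4 CPM with the inhibitor and 35.0 CPM with vehicle (ratio 0.811, interval 0.707 to 0.93). EED, the PRC2 subunit that binds trimethylated H3K27, went the other way, with 11.0 CPM with the inhibitor and 7.19 CPM with vehicle (ratio 1.53, interval 1.18 to 1.99). The intervals of the other 6 included 1, from TET1 at 1.33 (0.966 to 1.84) and TET2 at 1.04 to DNMT3B at 0.823 (0.59 to 1.14). With 1 library per group these differences have no replicate check. The S-phase list had a median of log2 -0.93 in LNCaP cells with 5 of 10 genes at least 2-fold lower, and the G2/M list a median of -0.56, beside -0.01 for all genes, while 4 stromal and vessel genes summed to 24.0 CPM with the inhibitor and 58.6 CPM with vehicle, nearly all of it COL1A1 and VWF, with DCN at 0. The same 4 genes summed to 42.7 to 57.9 CPM in C4-2 libraries of the inhibitor experiment. They summed to 11.8 to 17.3 CPM in those of the DHT experiment and to 4.78 to 6.7 CPM in VCaP libraries. The part of the S-phase, G2/M and stromal genes in the UHRF1 value was not tested.

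**Figure D5:**
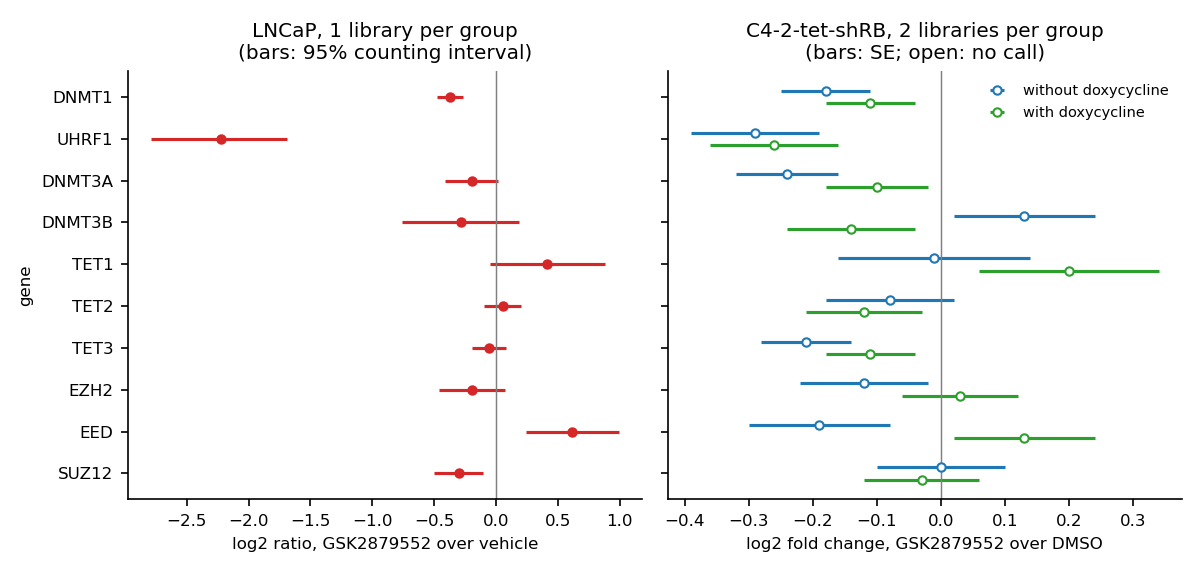
Left, log2 ratio of GSK2879552 to vehicle in LNCaP cells (1 library each, bars are 95% counting intervals), and right, log2 fold change ± SE of GSK2879552 over DMSO in C4-2 cells without and with doxycycline (2 libraries per group, open points had no call). UHRF1 is the lowest of the 10 in LNCaP cells at log2 -2.22 and also in C4-2 cells at log2 -0.29 without and -0.26 with doxycycline.

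Across the 22 libraries, with each gene's log2 CPM centred within its table, UHRF1 had the widest range (2.16 on the log2 scale), ahead of DNMT1 (1.14), DNMT3B (1.07) and EZH2 (0.87). The UHRF1 range was set by the LNCaP pair, at 12.4 CPM with vehicle and 2.65 CPM with the inhibitor, with 1 library per group. That pair also enters the profile differences given here. DNMT3A (0.37) and TET2 (0.38) varied least. The profile nearest to that of UHRF1 among 11572 genes, by the root-mean-square difference of centred log2 CPM, was KIFC1 (0.153), followed by RRM2 (0.154) and CDC45 (0.156), where the median gene was at 0.475.

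Nearest to DNMT1 were RFC2 (0.077), MCM3 (0.084) and MCM4 (0.088), against a median of 0.289. Among those nearest to DNMT3B were HMGB1 (0.10) and C4orf32 (0.103), against 0.316. Within the set, the closest pair was DNMT3A with TET3 (0.096) and the most distant was UHRF1 with EED (0.513), while DNMT1 lay nearer to EZH2 (0.117) than to UHRF1 (0.299). The measure is small for any 2 genes that vary little. DNMT3A and TET3 had SDs of only 0.1 and 0.13 in centred log2 CPM, so their small difference does not show a shared response. The libraries share treatments and depth within a table, so these figures describe likeness and carry no test.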

How the data were processed

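Raw read counts per gene were deposited by the authors in 4 tables. Per the submitters' processing notes FastQC 0.11.9, STAR 2.7.2 and featureCounts 1.6.4 were used with hg19 (GRCh37). The annotation version, the strand setting and the treatment of reads with several matches are not given in the sources used here. Lanes of 1 library were summed, as their counts differed by about sampling noise (chi-square per degree of freedom 0.983 to 1.01 with DHT and 0.994 to 0.996 in LNCaP). Genes passing filterByExpr were tested with edgeR 4.0.16 (quasi-likelihood test, TMM scaling, limma 3.58.1, R 4.3.3) over each whole table, with Benjamini-Hochberg adjustment and a threshold of 0.05, and DESeq2 1.42.0 was an alternative. The DHT table was fitted with additive doxycycline and DHT terms, so the DHT effect is assumed equal at each time and the residual degrees of freedom are 2. Single-library pairs were described as ratios, over genes holding 100 or more counts across both libraries, with exact (Clopper-Pearson) 95% intervals that cover counting error only, and a 2-fold limit. The scripts were tested on simulated data. The members were tested in every comparison and are given singly or as a range, and of a list at most 2 called genes with the smallest p in each direction are named, except that COL1A1, VWF and some genes of the closing section were chosen after their values were seen. Members and lists were chosen with earlier results of these data known, and the comparison of the doxycycline response between the C4-2 experiments was added after values were seen. CPM per kilobase used merged exon lengths of GENCODE v29 on GRCh38. Some genes that the naming rule picks are not reported here.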

Additional observations from a re-analysis of the deposited data

Results flagged for a closer look

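TET3 was called in a test of the difference between RB1-depletion responses in both pairs of experiments that were set against each other. The RB1 siRNA response in VCaP cells minus the doxycycline response in C4-2 cells with DMSO was log2 0.35 ± 0.09 (adjusted p = 0.0192 in edgeR), with own values of log2 -0.05 in VCaP cells and -0.37 in C4-2 cells. This call was lost without siRB replicate 1, siNTC replicate 3, doxycycline replicate 1 or 2, or DMSO replicate 1 (log2 0.34 to 0.38). The 3-day doxycycline response in C4-2 cells with DMSO minus that in C4-2 cells of the DHT experiment was log2 -0.53 ± 0.12 (adjusted p = 0.0179 in edgeR, 0.00593 in DESeq2). This call was lost without any 1 of 7 of the 14 libraries (log2 -0.65 to -0.42), namely both doxycycline and both DMSO libraries of the inhibitor experiment, and the DHT library at 0 days and both libraries at 3 days of the DHT experiment. Both tests share the doxycycline and DMSO libraries of the inhibitor experiment, so they are not independent. The second was added after the values were seen, so its call is no separate test of the difference seen in them.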

How the results depend on the processing

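Among the alternative values for the members 1629 kept their direction and side of the threshold, while 47 lost and 20 gained a call. The cause of the changes was not tested. Counts of members called, leaving out 1 library each, ranged over 1 to 2 in VCaP (1 in full), 0 to 5 with doxycycline and DMSO (4), 1 to 4 with doxycycline and the inhibitor (3), 0 to 2 with the inhibitor alone (0), 0 to 2 at 3 days (0), 1 to 5 at 30 days (3), and 0 to 1 for both differences between experiments (1). DESeq2 called 1 at 30 days, and without a filter on low counts 1 was called at 3 days, DNMT1 (log2 0.31). Fitting only the 2 groups compared, UHRF1 was called with doxycycline (adjusted p = 0.0096 in edgeR) and TET3 was not with the inhibitor (adjusted p = 0.14). Scaled by total counts, 3, 1 and 2 members were beyond 2-fold with DHT at 0, 3 and 30 days, and 0 by lane 1 at 0 days and 2 by lane 2 at 30 days. The shares of all genes beyond 2-fold in these settings are not given here, so these counts do not show whether the members stand out. Samples with the same replicate number shared little of their deviations (correlation 0.01 to 0.03 in VCaP, -0.12 to 0.03 in C4-2). This cannot exclude pairing, since the deviations in VCaP lie not far above sampling noise. With the replicate block 2 members were called in VCaP, TET2 being added (adjusted p = 0.0449), 0 in the VCaP to C4-2 difference (TET3 adjusted p = 0.059), and EZH2 with doxycycline (adjusted p = 0.0634) and TET3 with the inhibitor (adjusted p = 0.0778) were lost. For the DHT and LNCaP tables, unlike the others, no paired analysis was possible because their numbers are lanes of 1 library. Signs turned in 53 values, none called in either setting. SUZ12 with the inhibitor gave 0.01 unfiltered and 0 with the block, and in the C4-2 difference UHRF1 gave 0.02 and TET1 0.01 unfiltered. The other 49 left out 1 library, with log2 ranges of -0.11 to 0.04 (EED, VCaP), -0.11 to 0.10 and -0.15 to 0.09 (SUZ12 and TET1, inhibitor), -0.04 to 0.09 and -0.11 to 0.03 (EZH2 and SUZ12, inhibitor with doxycycline), -0.03 to 0.05 (DNMT3A, doxycycline with inhibitor), -0.01 to 0.15, -0.14 to 0.07, -0.13 to 0.05 and -0.03 to 0.07 (DNMT1, SUZ12, TET2 and UHRF1, interaction), -0.13 to 0.23 and -0.19 to 0.18 (EED and SUZ12, 3 days), -0.14 to 0.07 and -0.07 to 0.31 (the same, 30 days), -0.19 to 0 and -0.14 to 0 (EED and TET3, DHT), -0.26 to 0.10, -0.04 to 0.27, -0.13 to 0.27, -0.02 to 0.09, -0.01 to 0.18 and -0.05 to 0.33 (EED, SUZ12, TET1, TET2, TET3 and UHRF1, 30 against 3 days), and -0.19 to 0.24, -0.36 to 0, -0.14 to 0.09 and -0.24 to 0.15 (DNMT1, EED, TET1 and UHRF1, C4-2 difference). Counts over all genes by DESeq2 were 341 in VCaP (790 by edgeR), 30 at 3 days (81), 161 at 30 days (697), 14 between them (56) and 5323 with DHT (8149). Unfiltered they were 330 with the inhibitor (125), 406 with it beside doxycycline (246), 39 for the interaction (3), 222 at 3 days and 108 between 30 and 3 days. With the replicate block they were 908 with doxycycline (1444), 903 beside the inhibitor (1422), 161 with the inhibitor beside doxycycline and 560 for the VCaP to C4-2 difference (925). With only the 2 groups they were 3540, 477 and 1173 for the first 3 of these. Leaving out 1 library each they ranged over 515 to 826 in VCaP, 279 to 3200 with doxycycline, 316 to 3201 beside the inhibitor, 41 to 1735 with the inhibitor, 78 to 947 with it beside doxycycline, 0 to 195 for the interaction, 19 to 1002 at 3 days, 207 to 1965 at 30 days, 35 to 352 between them, 467 to 1737 for the VCaP to C4-2 difference and 80 to 601 for the C4-2 difference (207).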

Other observations

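Genes known to be silenced by promoter methylation in prostate cancer were read in the same libraries, as levels only, since no file here measures methylation. GSTP1, a detoxifying enzyme, reached at most 0.802 CPM in VCaP libraries, 0.143 CPM in C4-2 libraries of the DHT experiment and 0.125 CPM in those of the inhibitor experiment, and was at 0 in both LNCaP libraries. EDNRB, the endothelin B receptor, reached at most 0.14 CPM. CD44, a hyaluronan receptor, stood at 5.88 to 8.36 CPM in VCaP libraries and at most at 0.207 CPM elsewhere, and AOX1, an aldehyde oxidase, at 17.8 to 25.0 CPM in VCaP libraries and at most at 0.637 CPM elsewhere. Others of the same list of 14 were expressed. MGMT, a DNA repair enzyme, was read at 10.9 to 66.8 CPM, RASSF1 at 17.5 to 46.1 CPM and APC at 20.4 to 77.0 CPM over all libraries, and RARB, a retinoic acid receptor, reached 9.3 CPM. These are counts per gene, which do not separate transcripts from different promoters, so a level here does not show that a given promoter was active. In VCaP cells AOX1 was the 1 of 5 tested that was called, against 5.62% of all genes, and it fell with the RB1 siRNA (log2 -0.35 ± 0.11). Of 7 genes of the list tested, 4 rose with DHT (MGMT log2 0.45 ± 0.07, PTGS2 log2 2.83 ± 0.65) and ESR2 fell (log2 -1.24 ± 0.51). Over all genes 24.3% rose and 22.8% fell in that comparison. PTGS2 and ESR2 were near the floor there, at 0 to 0.8 CPM and 0.218 to 0.725 CPM. With doxycycline 0 of 6 or 7 were called by edgeR in either C4-2 experiment, against 0.468% of all genes at 3 days to 7.84% with DMSO.

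Among prostate genes known as PRC2 targets, the cell cycle inhibitor CDKN1C fell at 3 and 30 days of doxycycline in the DHT experiment (log2 -0.61 ± 0.14 and -0.72 ± 0.14). Of 11 genes of the methyl donor cycle 7 fell with DHT, led by SHMT2 (log2 -0.62 ± 0.06), and 3 rose. Of 8 readers of methylated DNA 2 rose with DHT (MBD2 log2 0.31 ± 0.06) and 2 fell (ZBTB38 log2 -0.36 ± 0.06), in a comparison where 24.3% of all genes rose and 22.8% fell, so that the count of readers lies near the share of all genes.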
